A study of Mus musculus with 2 samples.

Results

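Lhx8+ Shox2- cells are a group of facial mesenchymal cells from mouse embryos at E11.5, a stage of early face formation, taken from the lambdoid junction, the site where the maxillary and nasal processes meet and fuse into the upper lip. They were chosen by their own unique molecular identifier (UMI) counts, that is, counts of distinct captured transcripts. A cell had at most 10% of its UMIs in mitochondrial genes, at least 3 UMIs of Prrx1, Prrx2 and Twist1 together and at most 1 of Epcam, which is called the mesenchyme gate here. Within that gate it had at least 2 UMIs of Lhx8, 0 of Shox2, 0 of Pax7, at most 1 of Asb4, at most 1 of Gata3 and at most 2 of Sox9. The rule took 514 of the 14860 cell barcodes of the series, 168 of 6894 in the Crect lacZ library and 346 of 7966 in the wild-type library.

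The study profiled single cells with 10x Genomics chemistry in 1 library per genotype, each made from 4 to 5 pooled embryos, both labelled C57BL/6J. The Crect lacZ embryos have the genotype Crect; ROSA26-lacZ, in which a Cre transgene active in surface ectoderm switches on a lacZ reporter. The other library is wild-type. With 1 library per genotype, a difference between genotypes has no replicate check and cannot be told apart from a difference between libraries.

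Lhx8 encodes a LIM homeodomain factor of oral and maxillary mesenchyme, and mice without it have a cleft secondary palate. Shox2 encodes a homeodomain factor of the anterior palatal mesenchyme, and its loss in mice opens the anterior palate. The facial mesenchyme around them is patterned by signals from the overlying ectoderm, above all Wnt, Bmp, Fgf and Hedgehog proteins, and each territory is marked by its own set of homeobox, forkhead and T-box genes.

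The cells were compared with 1161 Shox2-high cells (mesenchyme gate, at least 2 Shox2 UMIs, 448 in Crect lacZ and 713 in wild-type) and with the other 10072 cells of the gate (4872 in Crect lacZ and 5200 in wild-type). The next shares count only cells that passed the full rule, with its limits on Gata3, Asb4, Pax7 and Sox9. Lhx8+ Shox2- cells made up 3.06% of the mesenchyme gate in Crect lacZ (95% Clopper-Pearson interval 2.62 to 3.55%) and 5.53% in wild-type (4.98 to 6.12%). Their median depth was 16970.5 UMIs per cell in Crect lacZ and 14237 in wild-type, against 22736.5 in Crect lacZ and 17440 in wild-type Shox2-high cells. When every cell was thinned to 6000 UMIs before the rule was applied, the share was 6.59% in Crect lacZ and 8.17% in wild-type. Of all barcodes 76 occurred in both libraries, and 4 of them belonged to Lhx8+ Shox2- cells.

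Lhx8 alone is not rare in this mesenchyme. At least 2 Lhx8 UMIs were found in 1818 gate cells of Crect lacZ, or 33.1%, and in 2540 of wild-type, or 40.6%. Most of these cells left the group on other genes: 71.3% in Crect lacZ and 66.6% in wild-type had more than 1 Gata3 UMI, and 33.9% in Crect lacZ and 39.4% in wild-type had Shox2. Cells that failed on Gata3 alone, and so had no Shox2 UMI, numbered 604 in Crect lacZ and 840 in wild-type. The group itself held 168 cells in Crect lacZ and 346 in wild-type. The name Lhx8+ Shox2- thus stands for a part low in Gata3, Asb4, Pax7 and Sox9, not for all mesenchyme with Lhx8 and without Shox2. Just inside the Lhx8 threshold, with exactly 2 UMIs, lay 54 cells of Crect lacZ and 117 of wild-type. Just outside it, with 1 Lhx8 UMI and all else passed, lay 116 cells of Crect lacZ and 236 of wild-type.

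The gate used Prrx1, Prrx2, Twist1 and Epcam, so only markers outside the rule bear on the label. The 6 mesenchymal markers that the rule did not use, among them the collagens Col1a1 and Col3a1 and the receptor Pdgfra, summed to 1203 CPM (UMIs of a gene scaled to one fixed total for every class and library) in Crect lacZ and 1028 CPM in wild-type Lhx8+ Shox2- cells. The 11 ectodermal markers other than Epcam, such as keratins and claudins, summed to 36.1 (Crect lacZ) and 32.2 CPM (wild-type). The next values describe genes that chose the cells or came with them as markers, and no test was made on them. Lhx8 (ENSMUSG00000096225, mm10 chr3:154306294-154330659, minus strand) stood at 266 CPM in Crect lacZ and 290 CPM in wild-type Lhx8+ Shox2- cells, against 273 CPM in Crect lacZ and 331 CPM in wild-type Shox2-high cells. The other gate cells held 78.3 CPM in Crect lacZ and 110 CPM in wild-type. These levels are set in part by the rule, since Shox2-high cells faced no Lhx8 threshold. Shox2-high cells with 2 or more Lhx8 UMIs held 308 CPM in Crect lacZ and 367 CPM in wild-type. Shox2 (ENSMUSG00000027833, mm10 chr3:66971727-66981771, minus strand) was 0 by rule, against 169 CPM in Crect lacZ and 233 CPM in wild-type Shox2-high cells.

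Cxcl14, which encodes a chemokine (mm10 chr13:56288643-56296551), reached 720 CPM in Crect lacZ and 879 CPM in wild-type Lhx8+ Shox2- cells. It was lower in Shox2-high cells, at 277 CPM in Crect lacZ and 440 CPM in wild-type, and lower again in the other cells, at 142 (Crect lacZ) and 252 CPM (wild-type). Dlx5, a distal-less homeobox gene, stood at 79.6 CPM in Crect lacZ and 84.3 CPM in wild-type Lhx8+ Shox2- cells, against 26.2 (Crect lacZ) and 34.2 CPM (wild-type) in Shox2-high cells and 29.3 (Crect lacZ) and 29.75 CPM (wild-type) in the other cells. Igfbp7, a secreted binding protein, stood at 143 (Crect lacZ) and 140 CPM (wild-type), with 81.7 (Crect lacZ) and 94.9 CPM (wild-type) in Shox2-high cells and 77.1 (Crect lacZ) and 66.2 CPM (wild-type) in other cells. Dkk1, a secreted Wnt antagonist, stood at 169 CPM in Crect lacZ and 261 CPM in wild-type Lhx8+ Shox2- cells, against 116 (Crect lacZ) and 149 CPM (wild-type) in Shox2-high cells and 145 (Crect lacZ) and 142 CPM (wild-type) in the other cells. After thinning to 6000 UMIs, 71.7% of Crect lacZ and 81.0% of wild-type Lhx8+ Shox2- cells had a Cxcl14 UMI, and 28.3% in Crect lacZ and 31.8% in wild-type had a Dlx5 UMI. Endothelial cells of the wild-type library (70 cells, median 19440 UMIs), which should lack both genes, had a Cxcl14 UMI in 25.7% and a Dlx5 UMI in 2.86%.

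**Figure D1:**
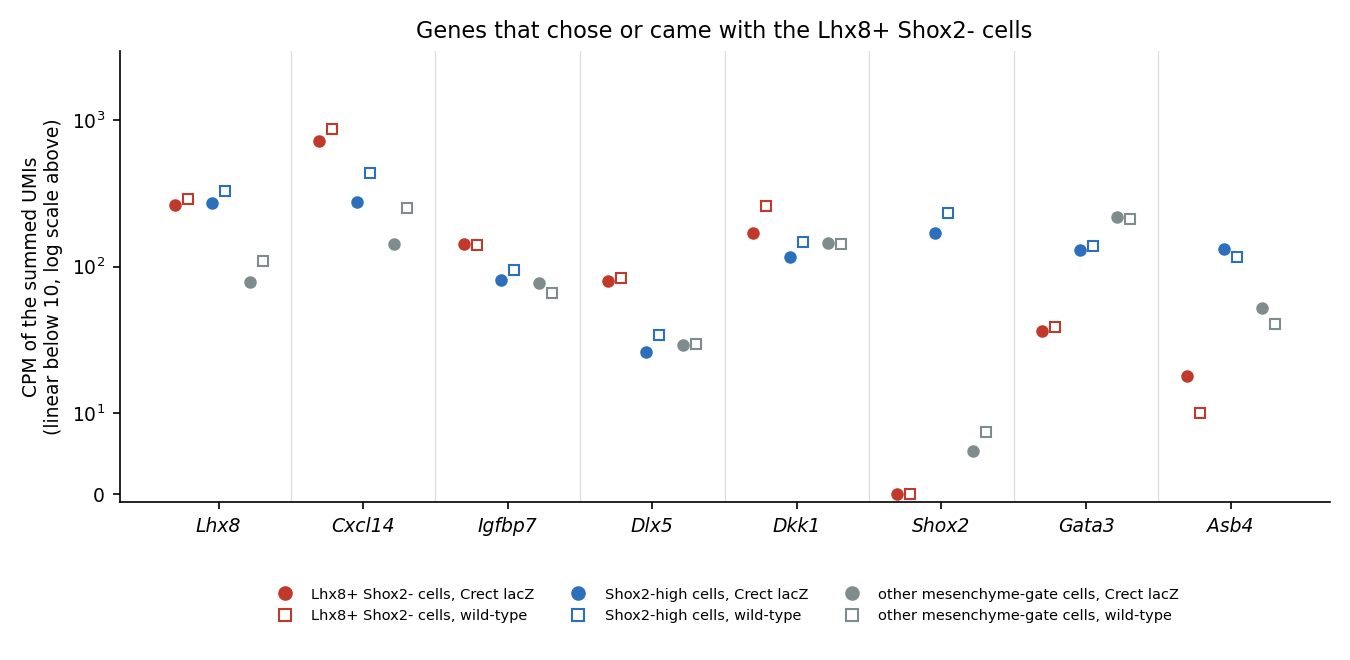
CPM of 8 genes in Lhx8+ Shox2- cells, Shox2-high cells and other mesenchyme-gate cells, with 1 point per library (filled circle for Crect lacZ, open square for wild-type) and an axis that is linear below 10 and logarithmic above. Lhx8 points of the first 2 classes lie close together (266 and 290 against 273 and 331 CPM), though only the first class had an Lhx8 threshold. Cxcl14 and Dlx5 are highest in Lhx8+ Shox2- cells in both libraries.

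Among gate cells that passed every other condition, Cxcl14, Igfbp7 and Dlx5 followed the number of Lhx8 UMIs, and Dkk1 varied less. Median depth differed too, at 20850 (Crect lacZ) and 17160 UMIs (wild-type) with 5 or more Lhx8 UMIs. With none it was 13990 (Crect lacZ) and 10670 UMIs (wild-type), and the part of depth was not tested. Igfbp7 ran from 175 (Crect lacZ) and 172 CPM (wild-type) at 5 or more to 26.3 (Crect lacZ) and 21.5 CPM (wild-type) at none. Cells with 5 or more Lhx8 UMIs held 949 CPM of Cxcl14 in Crect lacZ and 1038 CPM in wild-type. Cells with exactly 2 held 448 (Crect lacZ) and 580 CPM (wild-type), cells just outside with 1 held 258 (Crect lacZ) and 324 CPM (wild-type), and cells with none held 81.4 (Crect lacZ) and 166 CPM (wild-type). Dlx5 ran to 95.6 (Crect lacZ) and 91.0 CPM (wild-type) at 5 or more Lhx8 UMIs and to 7.05 (Crect lacZ) and 8.25 CPM (wild-type) at none, and Dkk1 to 168 (Crect lacZ) and 266 CPM (wild-type) at 5 or more and to 88.8 (Crect lacZ) and 156 CPM (wild-type) at none. Cells with a single Shox2 UMI that met all else numbered 30 in Crect lacZ and 85 in wild-type, and their Cxcl14, at 805 (Crect lacZ) and 943 CPM (wild-type), lay near that of the Lhx8+ Shox2- cells.

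When all gate cells were clustered without the genes of the rule and without the 5 markers, the Lhx8+ Shox2- cells were spread over several of 24 clusters. Cluster 11 held 19.05% of them in Crect lacZ and 19.9% in wild-type, cluster 4 held 12.5% in Crect lacZ and 19.1% in wild-type, and cluster 9 held 11.9% in Crect lacZ and 15.3% in wild-type. These clusters took 2.90 to 6.03% each of the Shox2-high cells, which lay mostly in clusters 1, 3 and 7. The leading genes of cluster 11 included the replication genes Ccne2, Cdc6 and Ung beside Robo2 and Sema5a, those of cluster 4 Hey2, Trps1, Robo2, Cyp26b1 and the cytokinesis gene Prc1, and those of cluster 9 the mitotic genes Cdc20 and Ccnb2. Held-out Cxcl14 and Dlx5 were among the leading genes of all 3. The rule still cut across clusters: Lhx8+ Shox2- cells were 14.2% of the cells of cluster 11 in Crect lacZ and 20.1% in wild-type. Cluster 6, whose median depth was 7845 UMIs, held a further 14.9% of them in Crect lacZ and 6.07% in wild-type. Cluster 0 held 11.9% of them in Crect lacZ and 10.1% in wild-type.

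**Figure D2:**
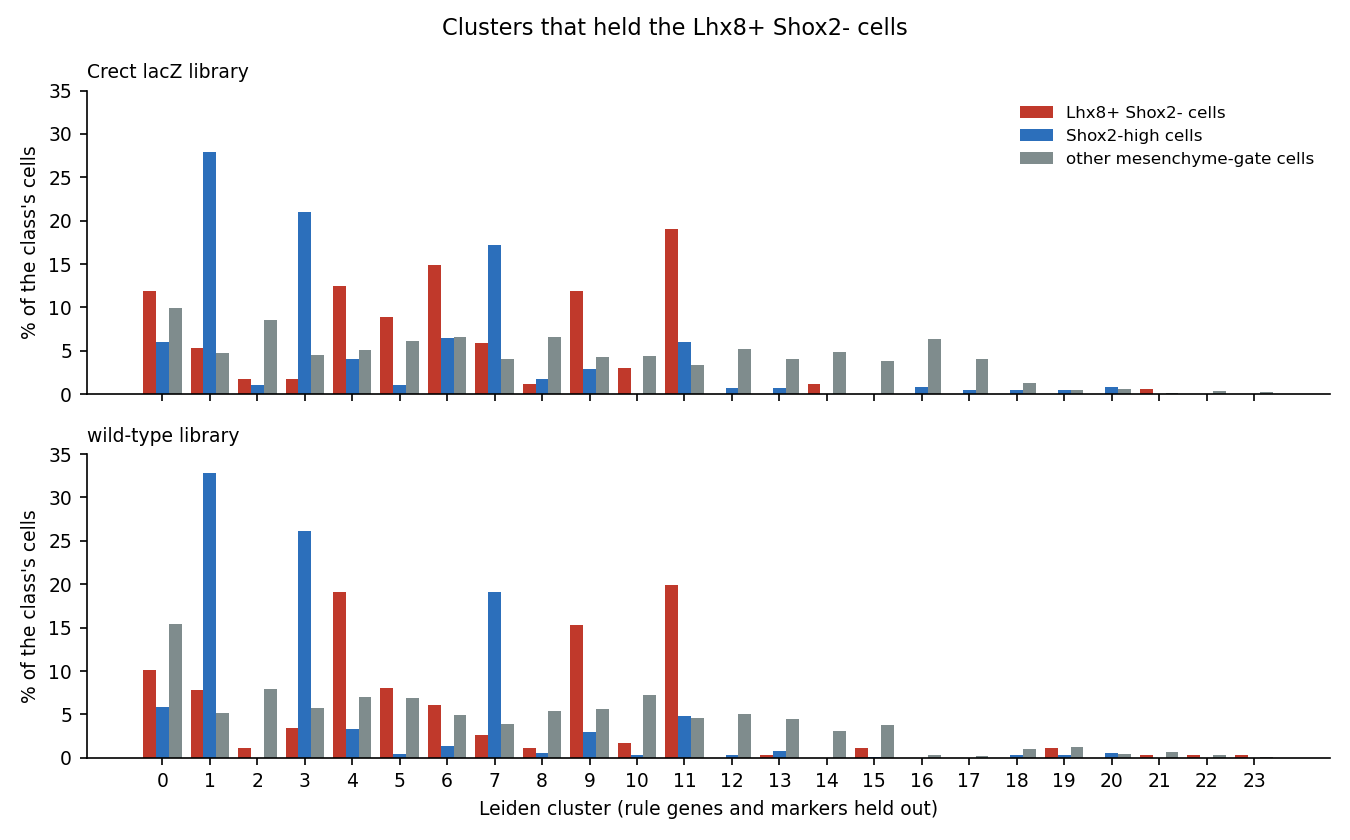
Share of each class of cells, in percent, that fell in each of 24 Leiden clusters, with the Crect lacZ library above and the wild-type library below. Red bars (Lhx8+ Shox2- cells) peak at cluster 11, at 19.05% and 19.9%, whereas blue bars (Shox2-high cells) peak at cluster 1.

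The remaining genes were tested on UMIs summed per class and library, with library as a block, in 1 edgeR quasi-likelihood fit of 12768 genes. A gene was called at an adjusted p under 0.05 with a change of at least 1.5-fold. Against Shox2-high cells, 208 genes were called higher (1.63%) and 170 lower (1.33%). Against the other gate cells, 145 were called higher (1.14%) and 358 lower (2.8%). An unadjusted p under 0.05 was found for 2235 genes in the first comparison and 2444 in the second. The median log2 difference over all genes was -0.0067 and 0.0020 in these comparisons. The classes were defined by UMIs of the same cells, so genes that vary with Lhx8, Shox2, Gata3, Asb4, Pax7 or Sox9 were bound to differ. A p-value says at most that a difference recurred in both libraries, weighed against a spread largely shared over genes. Thinning cells before the rule left 102 and 75 calls against Shox2-high cells, higher and lower, and without the library term there were 8 and 2, and 0 against the other cells (924 genes at an unadjusted p under 0.05).

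Wnt antagonists and Wnt response genes formed one of the lists. In canonical Wnt signalling, a Wnt ligand lets beta-catenin enter the nucleus and act with TCF/LEF factors, which switch on feedback genes such as Axin2, Nkd1, Notum and Sp5. Of the 22 listed genes, 17 passed the filter on low counts without being markers. Against Shox2-high cells 9 of them were higher and 2 lower, with a median log2 difference of 1.01, and against the other cells 6 were higher and 0 lower, with a median of 0.50. After thinning before the rule, 5 of 16 were higher and 1 lower against Shox2-high cells. Over all genes tested, 1.63% were higher and 1.33% lower against Shox2-high cells (median -0.0067), and 1.14% and 2.8% against the others (median 0.0020). These all-gene values apply to every list below. The lists were chosen with earlier results of these data known, so their counts are no independent support.

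Axin2, a scaffold that promotes beta-catenin breakdown, stood at 82.5 CPM in Crect lacZ and 114 CPM in wild-type Lhx8+ Shox2- cells, against 39.6 (Crect lacZ) and 57.8 CPM (wild-type) in Shox2-high cells and 41.1 (Crect lacZ) and 64.9 CPM (wild-type) in the other cells. The log2 difference was 1.01 ± 0.08 (SE) over Shox2-high cells (edgeR adjusted p = 2.09e-05) and 0.91 ± 0.07 over the others (adjusted p = 1.82e-05). Nkd1, an inhibitor of Dishevelled, stood at 229 CPM in Crect lacZ and 251 CPM in wild-type Lhx8+ Shox2- cells, against 93.1 (Crect lacZ) and 103 CPM (wild-type) in Shox2-high cells and 122 (Crect lacZ) and 148 CPM (wild-type) in the others. In each library and in each comparison, Axin2 and Nkd1 were highest in Lhx8+ Shox2- cells.

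Notum, an enzyme that inactivates Wnt ligands, was scarce but showed the largest change of the group against the other cells, with 13.9 CPM in Crect lacZ and 9.07 CPM in wild-type Lhx8+ Shox2- cells, against 2.39 (Crect lacZ) and 2.64 CPM (wild-type) in the others (log2 difference 2.16 ± 0.26, SE, edgeR adjusted p = 0.000518). Sp5, a zinc finger factor, stood at 23.9 (Crect lacZ) and 12.7 CPM (wild-type) in Lhx8+ Shox2- cells, against 8.93 (Crect lacZ) and 7.26 CPM (wild-type) in Shox2-high cells and 11.4 (Crect lacZ) and 9.97 CPM (wild-type) in the others. Both were called in both comparisons, though the wild-type counting interval for Sp5 over the other cells included no change. Lef1, the nuclear factor itself, was at 205 CPM in Crect lacZ and 300.4 CPM in wild-type Lhx8+ Shox2- cells, against 75.8 (Crect lacZ) and 110 CPM (wild-type) in Shox2-high cells, and was called in that comparison (log2 difference 1.44 ± 0.06, SE). Over the other cells its difference of 0.50 fell short of 1.5-fold.

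Secreted antagonists went both ways. Dkk2, a Dickkopf protein, had 65.3 CPM in Crect lacZ and 74.9 CPM in wild-type Lhx8+ Shox2- cells, against 18.5 (Crect lacZ) and 16.9 CPM (wild-type) in Shox2-high cells (log2 difference 2.01 ± 0.10, SE, edgeR adjusted p = 1.61e-06), but 55.1 (Crect lacZ) and 59.5 CPM (wild-type) in the other cells, which was not called. Wif1, Kremen1 and Nkd2 were likewise higher only over Shox2-high cells in the calls, while Dkk3 and Tcf7 were called only over the other cells; whether the 2 comparisons differ for these genes was not tested. Frzb and Sostdc1, 2 further secreted antagonists, were lower than in Shox2-high cells. Frzb stood at 80.3 CPM in Crect lacZ and 75.6 CPM in wild-type Lhx8+ Shox2- cells, against 165 (Crect lacZ) and 162 CPM (wild-type).

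**Figure D3:**
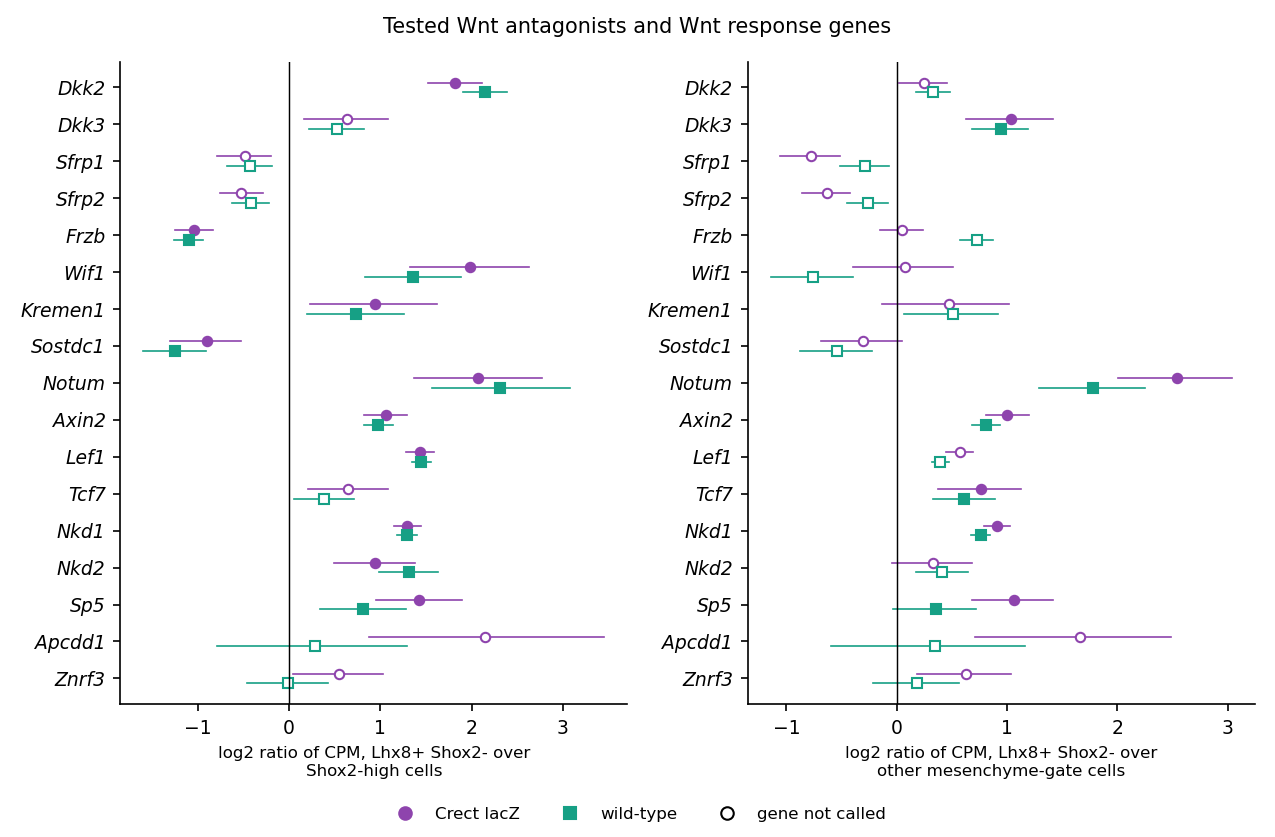
Log2 ratio of CPM for the 17 tested Wnt antagonists and response genes, Lhx8+ Shox2- cells over Shox2-high cells on the left and over other mesenchyme-gate cells on the right, with Crect lacZ as circles, wild-type as squares, lines for 95% counting intervals and open symbols for genes that were not called. Axin2, Nkd1, Notum and Sp5 are filled and right of 0 on both sides, and Frzb and Sostdc1 lie left of 0 on the left side.

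Of the 24 Wnt ligands and receptors, 22 were tested. Wnt5a, Fzd10 and Rspo2 were higher and Lgr5 lower than in Shox2-high cells, and Fzd10 and Rspo1 were higher and Rspo2 and Lgr5 lower than in the other cells, with medians of -0.04 and 0.02. Fzd10, a Frizzled receptor, stood at 33.2 CPM in Crect lacZ and 33.6 CPM in wild-type Lhx8+ Shox2- cells, against 16.9 (Crect lacZ) and 19.2 CPM (wild-type) in Shox2-high cells. Rspo2, an R-spondin that strengthens Wnt signals, lay between the classes, at 30.7 (Crect lacZ) and 34.9 CPM (wild-type) in Lhx8+ Shox2- cells, 21.4 (Crect lacZ) and 21.8 CPM (wild-type) in Shox2-high cells and 59.8 (Crect lacZ) and 68.0 CPM (wild-type) in the others.

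Promoters of the Wnt response genes were read for the TCF/LEF-type letters CTTTGAT or CTTTGTT on either strand, in the 250 bases before the RefSeq start (GRCm38.p6). The RefSeq table held 19 promoters of 14 listed genes. A match was found for 2 of these genes, Sp5 and the marker Dkk1, and in 8.06% of all 32851 promoters counted singly. Sp5 (chr2:70474673-70474922, plus strand) and Dkk1 (chr19:30549497-30549746, minus strand) are shown for these matches, in capitals, and Axin2 (chr11:108920099-108920348, plus strand) as a gene called in both comparisons with none of these letters in the window. A match describes the sequence and is not a shown binding site. All are given 5′ to 3′ on the strand of the gene.
Sp5: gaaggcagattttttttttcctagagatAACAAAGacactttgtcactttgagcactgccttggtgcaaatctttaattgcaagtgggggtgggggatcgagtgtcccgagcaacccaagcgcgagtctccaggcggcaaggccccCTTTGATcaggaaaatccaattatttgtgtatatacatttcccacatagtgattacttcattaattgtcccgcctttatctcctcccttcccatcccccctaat
Dkk1: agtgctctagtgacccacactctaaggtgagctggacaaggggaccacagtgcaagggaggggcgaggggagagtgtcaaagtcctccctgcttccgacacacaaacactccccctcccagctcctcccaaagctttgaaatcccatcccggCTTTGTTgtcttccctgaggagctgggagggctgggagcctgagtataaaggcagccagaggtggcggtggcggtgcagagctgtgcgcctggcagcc
Axin2: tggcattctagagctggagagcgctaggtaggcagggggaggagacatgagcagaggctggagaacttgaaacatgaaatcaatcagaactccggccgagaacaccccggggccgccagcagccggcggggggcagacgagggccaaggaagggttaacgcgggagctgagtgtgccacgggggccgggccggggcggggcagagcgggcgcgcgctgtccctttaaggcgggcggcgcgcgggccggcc

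Bmp proteins act through Smad factors and switch on Msx and Id genes. Of 31 listed Bmp and Tgf-beta genes 28 were tested. Against Shox2-high cells 7 were higher (Bmp2, Bmp4, Bmp5, Bmp7, Grem1, Bambi and Msx2) and 3 lower (among them Inhba and Fst), with a median of 0.07, and against the other cells Bmp4, Bmp5 and Msx1 were higher and Id1, Tgfb2 and Gdf10 lower, with a median of -0.07. Bmp4 was at 283 CPM in Crect lacZ and 282 CPM in wild-type Lhx8+ Shox2- cells, against 107 (Crect lacZ) and 120 CPM (wild-type) in Shox2-high cells (log2 difference 1.31 ± 0.05, SE, edgeR adjusted p = 2.47e-07) and 148 (Crect lacZ) and 167 CPM (wild-type) in the others. The 2 libraries gave nearly the same Bmp4 level within the Lhx8+ Shox2- cells, well above both other classes. Fst, follistatin, an antagonist of activins and Bmps, showed the reverse against Shox2-high cells, at 24.3 (Crect lacZ) and 23.5 CPM (wild-type) against 74.3 (Crect lacZ) and 73.8 CPM (wild-type).

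Msx1, a homeobox target of Bmp, was abundant in Lhx8+ Shox2- cells, with 1583 CPM in Crect lacZ and 1993 CPM in wild-type, against 1172 (Crect lacZ) and 1490 CPM (wild-type) in Shox2-high cells and 919 (Crect lacZ) and 1275 CPM (wild-type) in the others, where the difference was called (log2 0.74 ± 0.04, SE). Id1, another target, was 273 (Crect lacZ) and 253 CPM (wild-type) in Lhx8+ Shox2- cells, against 383 (Crect lacZ) and 437 CPM (wild-type) in the others, and was called lower. Bmp targets therefore did not share a direction over the other cells.

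The 29 maxillary and oral patterning factors (24 tested, 4 being genes of the rule or markers) had calls in both directions. Against Shox2-high cells Msx2 and Irx3 were higher, and Lhx6, Osr2, Tbx22, Meis1, Foxf2, Mn1 and Pax9 lower, with a median of -0.49. Osr2, an odd-skipped factor of palatal mesenchyme, stood at 16.1 CPM in Crect lacZ and 5.59 CPM in wild-type Lhx8+ Shox2- cells, against 63.0 (Crect lacZ) and 45.1 CPM (wild-type) in Shox2-high cells (log2 difference -2.45 ± 0.24, SE, edgeR adjusted p = 0.000149). Meis1, a homeobox cofactor, was at 74.6 (Crect lacZ) and 79.5 CPM (wild-type), against 157 (Crect lacZ) and 200.3 CPM (wild-type). Against the other cells 6 were higher (among them Lhx6, Dlx2, Tbx3, Msx1 and Foxf2) and 8 lower (among them Barx1, Osr1, Tbx22, Mn1, Pax9, Irx3 and Irx5), with a median of -0.23. With Shox2-high cells kept among the others, 3 were higher and 9 lower. Lhx6, a LIM homeodomain gene related to Lhx8, lay between the classes, at 10.00 (Crect lacZ) and 5.40 CPM (wild-type), against 16.9 (Crect lacZ) and 12.1 CPM (wild-type) in Shox2-high cells and 4.93 (Crect lacZ) and 3.29 CPM (wild-type) in the others.

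Dlx6, which neighbours Dlx5 on the chromosome, was the 1 factor called higher in both comparisons among 7 tested of 14 distal and mandibular arch factors. It stood at 22.9 CPM in Crect lacZ and 16.4 CPM in wild-type Lhx8+ Shox2- cells, against 6.08 (Crect lacZ) and 5.58 CPM (wild-type) in Shox2-high cells and 7.38 (Crect lacZ) and 5.50 CPM (wild-type) in the others. In this list Nr2f1 was lower in both comparisons, and Gsc and Nr2f2 were lower against the other cells. After thinning before the rule, 6 of the list were tested. None was then called against Shox2-high cells, and 1 was higher and 3 lower against the others. Of 17 nasal patterning factors 14 were tested. Pax3, Emx2 and Hey2 were among those higher and Nr2f1 among those lower than in Shox2-high cells, and Hey2 and Eya1 were higher and Nr2f1 lower than in the other cells. After thinning before the rule, 4 nasal factors were higher and 0 lower against Shox2-high cells, and 1 higher and 4 lower against the others. Among 16 LIM domain factors and partners, 14 tested, 0 were higher and 2 lower against Shox2-high cells (Lhx6 and Ssbp2), and Lhx9 and Lhx6 were higher and Lmo2 lower against the others. After thinning before the rule, 9 of this list were tested, with 0 higher and 2 lower against Shox2-high cells and 0 called against the others.

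Of 22 Hedgehog response and forkhead genes 20 were tested, and 1 was higher (Gas1) and 7 lower (Ptch1, Foxf2, Foxd2, Foxc1, Foxp1, Foxp2 and Foxp4) than in Shox2-high cells, with a median of -0.66. Against the other cells 3 were higher (Ptch1, Gli1 and Foxf2) and 7 lower (Cdon, Boc, Foxc1, Foxc2, Foxp1, Foxp2 and Foxp4), with a median of -0.19. With Shox2-high cells kept among the others, 0 were higher and 7 lower, and Ptch1 had a log2 difference of 0.43. Foxp2 stood at 12.1 CPM in Crect lacZ and 5.40 CPM in wild-type Lhx8+ Shox2- cells, against 64.4 (Crect lacZ) and 55.2 CPM (wild-type) in the other cells (log2 difference -2.87 ± 0.18, SE, edgeR adjusted p = 6.39e-06). Foxp1 was at 21.4 (Crect lacZ) and 12.1 CPM (wild-type), against 97.6 (Crect lacZ) and 84.8 CPM (wild-type). Ptch1, the Hedgehog receptor and a direct Hedgehog target, lay between the classes, with 78.2 CPM in Crect lacZ and 62.7 CPM in wild-type Lhx8+ Shox2- cells, 115 (Crect lacZ) and 115 CPM (wild-type) in Shox2-high cells and 45.6 (Crect lacZ) and 40.3 CPM (wild-type) in the others. Foxf2, a forkhead gene that responds to Hedgehog in the face, kept the same order of classes.

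Called Fgf genes were lower than in Shox2-high cells. Of 19 listed genes 15 were tested, and Fgf10, Dusp6 and Etv5 were lower and none higher, with a median of -0.30, while against the other cells Etv1 was higher and none lower, with a median of -0.03. Dusp6, a phosphatase induced by Fgf signalling, stood at 43.9 CPM in Crect lacZ and 29.5 CPM in wild-type Lhx8+ Shox2- cells, against 75.1 (Crect lacZ) and 85.9 CPM (wild-type) in Shox2-high cells. Of 18 retinoic acid genes 15 were tested: Cyp26b1, which breaks retinoic acid down, and Rdh10 were higher and Stra6 and Dhrs3 lower than in Shox2-high cells, and Rarb, Stra6 and Dhrs3 were lower than in the others. Cyp26b1 was at 39.3 (Crect lacZ) and 43.4 CPM (wild-type) in Lhx8+ Shox2- cells, against 15.2 (Crect lacZ) and 15.96 CPM (wild-type) in Shox2-high cells.

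In the Igf axis, a set of growth factors, their carriers and related genes, every called gene was lower. The marker Igfbp7 belongs to this list and got no test. Its levels, given above, were higher in Lhx8+ Shox2- cells than in both other classes. Of 14 listed genes 12 were tested, and 2 were lower against Shox2-high cells (Igf2 and H19, median -0.15) and 5 against the others (Igf1, Igf2, Igfbp2, Igfbp3 and H19, median -0.43). Igf2, a fetal growth factor, stood at 41.8 CPM in Crect lacZ and 73.3 CPM in wild-type Lhx8+ Shox2- cells, against 62.6 (Crect lacZ) and 159 CPM (wild-type) in Shox2-high cells and 67.4 (Crect lacZ) and 160 CPM (wild-type) in the others. Igf1 was at 47.1 (Crect lacZ) and 31.5 CPM (wild-type), against 132 (Crect lacZ) and 127 CPM (wild-type) in the others. The H19 call over Shox2-high cells was lost when only Shox2-high cells with 2 or more Lhx8 UMIs were kept (log2 -0.58).

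Of 28 chemokine and guidance genes 25 were tested. Sema5a and Robo2 were higher and Slit2 and Epha3 lower than in Shox2-high cells (median -0.11), and Sema5a, Nrp2 and Robo2 were higher and Nrp1, Plxna2 and Slit2 lower than in the others (median -0.04). Robo2, a receptor for Slit proteins, stood at 76.4 CPM in Crect lacZ and 117 CPM in wild-type Lhx8+ Shox2- cells, against 28.1 (Crect lacZ) and 47.7 CPM (wild-type) in Shox2-high cells and 31.4 (Crect lacZ) and 57.8 CPM (wild-type) in the others. Its ligand gene Slit2 ran the other way, at 32.8 (Crect lacZ) and 20.1 CPM (wild-type), against 79.8 (Crect lacZ) and 80.0 CPM (wild-type) in Shox2-high cells and 47.7 (Crect lacZ) and 44.8 CPM (wild-type) in the others. Of 16 Notch pathway genes 11 were tested, and the target genes Hey1 and Hey2 were higher in both comparisons (medians 0.24 and -0.0021), with Notch1, Nrarp and Mfng lower against the others. Hey2 was at 51.4 (Crect lacZ) and 44.2 CPM (wild-type) in Lhx8+ Shox2- cells, against 9.21 (Crect lacZ) and 10.6 CPM (wild-type) in Shox2-high cells and 19.8 (Crect lacZ) and 25.2 CPM (wild-type) in the others.

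Of 29 matrix and connective tissue genes 27 were tested. Col6a3, Col26a1, Lum and Cthrc1 were higher and Col23a1, Fbn1 and Hapln1 lower than in Shox2-high cells (median 0.02), and Col1a1, Col26a1, Postn and Cthrc1 were higher and Col12a1, Col23a1, Fn1, Hapln1 and Lox lower than in the others (median 0.06). Of 23 skeletal and tendon genes 17 were tested, and the bone factors Runx3 and Sp7 were higher in both comparisons (medians 0.14 and 0.05). Sp7 stood at 14.99 CPM in Crect lacZ and 11.0 CPM in wild-type Lhx8+ Shox2- cells, against 4.75 (Crect lacZ) and 6.03 CPM (wild-type) in Shox2-high cells and 4.43 (Crect lacZ) and 4.45 CPM (wild-type) in the others, while Runx2, which acts before Sp7 in bone formation, was not called. Sox5, Scx and Ebf1 were lower than in Shox2-high cells and Ebf1 and Ebf3 lower than in the others.

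Pgm2l1, an enzyme of sugar phosphate metabolism, was the largest called rise over the other cells at 50 CPM or more, at 71.4 CPM in Crect lacZ and 98.8 CPM in wild-type Lhx8+ Shox2- cells, against 31.5 (Crect lacZ) and 45.5 CPM (wild-type) in the others. It was not called over Shox2-high cells, which held 63.4 (Crect lacZ) and 90.6 CPM (wild-type). Trps1, a GATA-type repressor of skeletal and hair development, was at 172 CPM in Crect lacZ and 207 CPM in wild-type Lhx8+ Shox2- cells, against 47.9 (Crect lacZ) and 66.8 CPM (wild-type) in Shox2-high cells (log2 difference 1.72 ± 0.06, SE, edgeR adjusted p = 8.1e-08) and 73.1 (Crect lacZ) and 98.5 CPM (wild-type) in the others (log2 1.16 ± 0.05). Zeb2, a zinc finger factor of neural crest, was likewise called higher in both, at 168 CPM in Crect lacZ and 258 CPM in wild-type Lhx8+ Shox2- cells, with log2 differences of 1.42 over Shox2-high cells and 0.80 over the others. Nbl1, a secreted Bmp antagonist, was called over Shox2-high cells and not over the others, at 247 (Crect lacZ) and 274 CPM (wild-type), against 70.1 (Crect lacZ) and 85.01 CPM (wild-type) in Shox2-high cells and 259 (Crect lacZ) and 336 CPM (wild-type) in the others. Bdnf, a neurotrophin, stood at 71.0 (Crect lacZ) and 89.0 CPM (wild-type), against 18.9 (Crect lacZ) and 32.1 CPM (wild-type) in Shox2-high cells.

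On the lower side, Mecom, a zinc finger factor, stood at 19.3 CPM in Crect lacZ and 9.45 CPM in wild-type Lhx8+ Shox2- cells, against 60.8 (Crect lacZ) and 49.4 CPM (wild-type) in Shox2-high cells. Against the other cells the lower genes included Foxp2, Gsc, Foxp1, Pax9, Igf1 and Gata2. What part the limits on Pax7, Gata3 and Asb4 in the rule had in these was not tested. Gata2 was at 29.6 (Crect lacZ) and 31.6 CPM (wild-type), against 114 (Crect lacZ) and 92.3 CPM (wild-type). Gng11, also among these 10 genes, lost its call without the clusters that carry markers of other cell types (log2 -0.42), an alternative chosen after seeing the data.

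**Figure D4:**
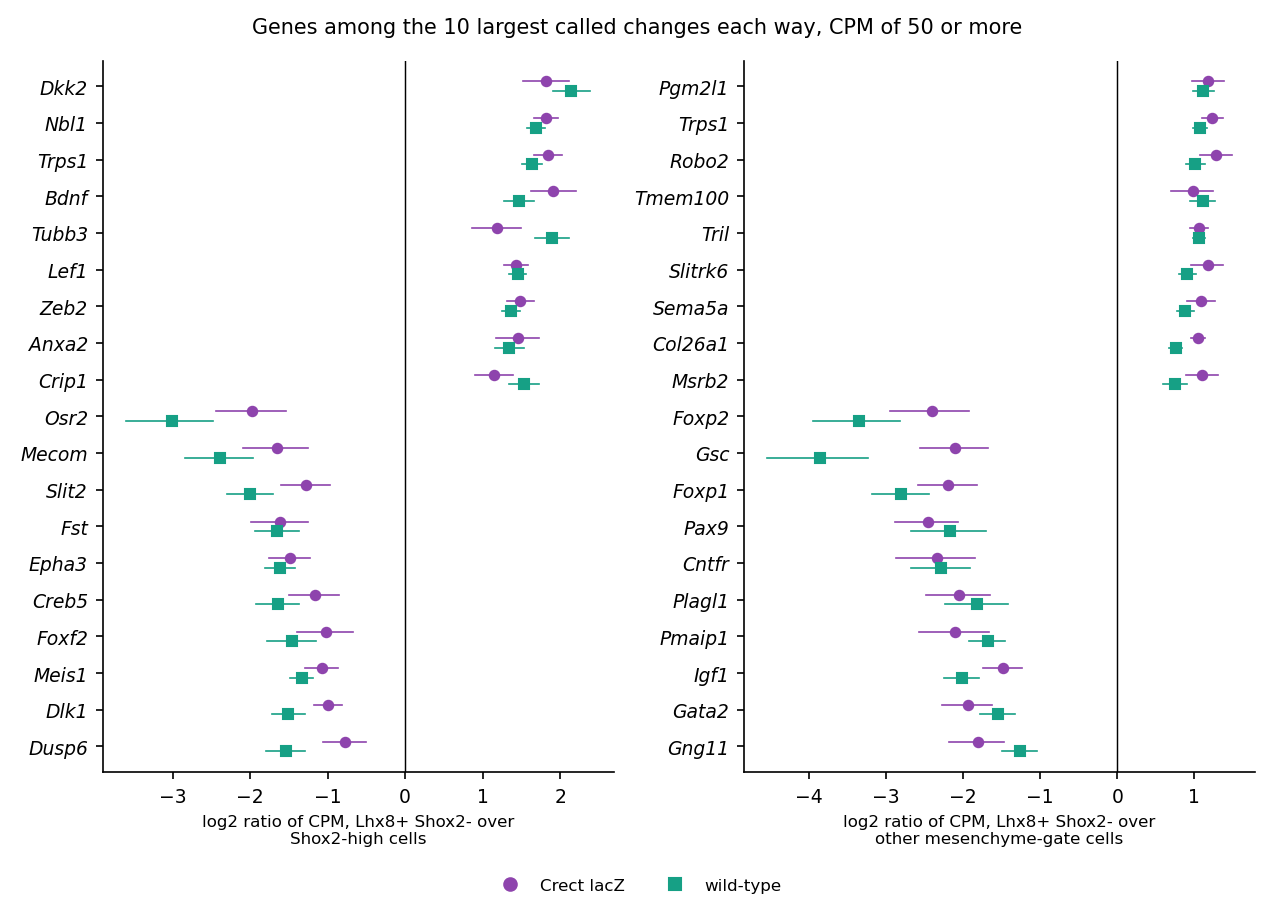
Log2 ratio of CPM for genes among the 10 largest called changes each way at a CPM of 50 or more, Lhx8+ Shox2- cells over Shox2-high cells on the left and over other mesenchyme-gate cells on the right, with Crect lacZ as circles, wild-type as squares and 95% counting intervals as lines. Trps1 is among the 10 higher genes on both sides, and Osr2 and Foxp2 head the lower genes.

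Thinning before the rule ended the calls of 10 of the 49 genes chosen against Shox2-high cells (among them Sostdc1, Etv5, Gas1, Foxf2, Stra6, Fbn1, Sox5, Ube2c and Fos) and of 8 of the 43 chosen against the others (Hey2, Fzd10, Bmp4, Id1, Stra6, Slit2, Fn1 and Cdkn1c). Each kept its direction, Bmp4 with a log2 difference of 0.48 and Hey2 with 0.38. An Lhx8 threshold of 3 UMIs ended those of Irx3, Gas1, Stra6 and Ube2c against Shox2-high cells and of Stra6 against the others.

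Over all genes tested, 1.63% were called higher and 1.33% lower against Shox2-high cells, and 1.14% higher and 2.8% lower against the others. At such shares few calls would be seen in lists as short as those of the cell cycle. The counts that follow therefore do not set cell cycle genes apart. Of 44 S phase genes 0 were called in either comparison by edgeR, and of 52 G2 and M phase genes 1, Ube2c, was called lower against Shox2-high cells and 0 against the others (medians -0.32 and -0.12). Other settings called 0 to 4 of the G2 and M genes lower against Shox2-high cells, and DESeq2 called 3, without Ube2c. The G2 and M genes summed to 6843 CPM in Crect lacZ and 9774 CPM in wild-type Lhx8+ Shox2- cells, against 8955 (Crect lacZ) and 11490 CPM (wild-type) in Shox2-high cells and 7945 (Crect lacZ) and 9825 CPM (wild-type) in the others. The wild-type library was higher in each class. Of 7 cyclin-dependent kinase inhibitor genes 5 were tested, and Cdkn1c, at 372 (Crect lacZ) and 403 CPM (wild-type), was called lower than in the other cells, which held 552 (Crect lacZ) and 637 CPM (wild-type), though the change fell under 1.5-fold in 6 alternatives. Of 25 genes of the response to tissue dissociation 24 were tested, with Klf4 higher and Fos lower against Shox2-high cells and Fos, Jun, Junb, Btg2 and Klf2 lower against the others, and their sum was 2712 (Crect lacZ) and 3462 CPM (wild-type), against 2990 (Crect lacZ) and 3601 CPM (wild-type) in the others.

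Markers of other cell types were summed in the same way. The 9 endothelial markers summed to 32.8 CPM in Crect lacZ and 25.9 CPM in wild-type Lhx8+ Shox2- cells, against 145 (Crect lacZ) and 124 CPM (wild-type) in the other cells, and macrophage, glial, muscle and pigment sums stayed under 30 CPM, with 5 of 7 pigment markers at 0 in Crect lacZ and 4 in wild-type. Pax7, which the rule sets to 0, is a muscle marker, and without it the 7 others summed to 10.7 (Crect lacZ) and 5.02 CPM (wild-type), against 7.33 (Crect lacZ) and 6.99 CPM (wild-type) in the other cells. The 8 mural cell markers summed to 68.5 (Crect lacZ) and 43.03 CPM (wild-type), against 50.6 (Crect lacZ) and 45.5 CPM (wild-type) in Shox2-high cells and 55.9 (Crect lacZ) and 44.4 CPM (wild-type) in the others. The 10 erythroid markers summed to 1787 CPM in Crect lacZ and 14620 CPM in wild-type Lhx8+ Shox2- cells, against 8211 (Crect lacZ) and 5227 CPM (wild-type) in Shox2-high cells. Of the Lhx8+ Shox2- cells 4, all wild-type, lay in a cluster led by haemoglobin genes, 1 in a macrophage cluster and 1 in a glial one. Without clusters of this kind the erythroid sum was 1787 (Crect lacZ) and 3759 CPM (wild-type), against 1689 (Crect lacZ) and 3610 CPM (wild-type) in Shox2-high cells, and the Wnt gene counts were 9 higher and 2 lower of 17, and 6 and 0 against the others. The 9 neuronal markers summed to 109 (Crect lacZ) and 120 CPM (wild-type), against 51.5 (Crect lacZ) and 51.3 CPM (wild-type) in Shox2-high cells and 98.2 (Crect lacZ) and 119 CPM (wild-type) in the others. Of the sum in Lhx8+ Shox2- cells Tubb3, at 47.5 (Crect lacZ) and 79.3 CPM (wild-type), made up a large share. The part of the markers of other cell types in the results was not tested.

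The Lhx8+ Shox2- cells varied among themselves most in a few genes. At 6000 UMIs per cell, among 2689 genes with a mean of at least 0.3 UMIs in each library, the variance of Cxcl14 was 5.35 times its mean in Crect lacZ (166 cells) and 5.18 times in wild-type (337 cells), ahead of Dkk1 at 2.80 times in Crect lacZ and 2.98 times in wild-type. Malat1, Actb, Xist, Vps8, mt-Co3, mt-Atp6, Ube2c, mt-Co1 and Hmgb2 were the other genes ranked high in both. Ube2c and Hmgb2 act in the cell cycle, with a ratio for Ube2c of 4.00 in Crect lacZ and 3.98 in wild-type. Over cells, Msx1 and Cxcl14 had a Spearman rho of 0.31 in Crect lacZ and 0.30 in wild-type, given as a description of sparse counts that share their depth.

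Between genotypes, the 2 libraries were set side by side without a test. Of 7275 genes with 100 or more UMIs in Lhx8+ Shox2- cells, 34 were at least 2-fold higher in Crect lacZ (0.467%) and 159 at least 2-fold lower (2.19%), and 21 and 66 of these were past 2-fold in the other gate cells too. The highest ratios belonged to the predicted genes Gm10260 (369 CPM in Crect lacZ against 8.10 CPM in wild-type), Gm10709, Gm5900, Gm10093 and Gm8797, with ratios of 14.7 to 45.5 for the 5 genes in Lhx8+ Shox2- cells and of 14.2 to 50.3 in the other cells. The 5 lowest were erythroid genes (Alas2, Hba-a2, Hbb-bt, Hba-x) and Car2, beside the 4 wild-type cells of the haemoglobin cluster.

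Among markers, Lhx8, Igfbp7 and Dlx5 had ratios of 0.918, 1.02 and 0.944 of Crect lacZ over wild-type in Lhx8+ Shox2- cells, with 95% counting intervals that include 1. Dkk1 was lower in Crect lacZ, at 169 CPM against 261 CPM in wild-type, a ratio of 0.646 (0.581 to 0.718), whereas in the other gate cells the ratio was 1.02 (0.992 to 1.04). Whether these ratios differ was not tested across libraries. Shox2-high cells also held less Dkk1 in Crect lacZ than in wild-type, at the levels given above. Those with 2 or more Lhx8 UMIs held 112 CPM in Crect lacZ and 153 CPM in wild-type. Those with 0 or 1 went the other way, at 143 CPM in Crect lacZ and 111 CPM in wild-type. A lower Dkk1 in Crect lacZ was thus not particular to Lhx8+ Shox2- cells. Cxcl14 had a ratio of 0.819 in Lhx8+ Shox2- cells and 0.562 in the others. Lef1 and Axin2 were lower in Crect lacZ in both classes, Lef1 with ratios of 0.681 in Lhx8+ Shox2- cells and 0.604 in the others. Intervals cover counting error only. The other gate cells were not the same mixture in the 2 libraries. Cells with 3 or more Sox9 UMIs made up 17.8% of them in Crect lacZ and 3.48% in wild-type. What part this had in the ratios of the other cells was not tested.

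**Figure D5:**
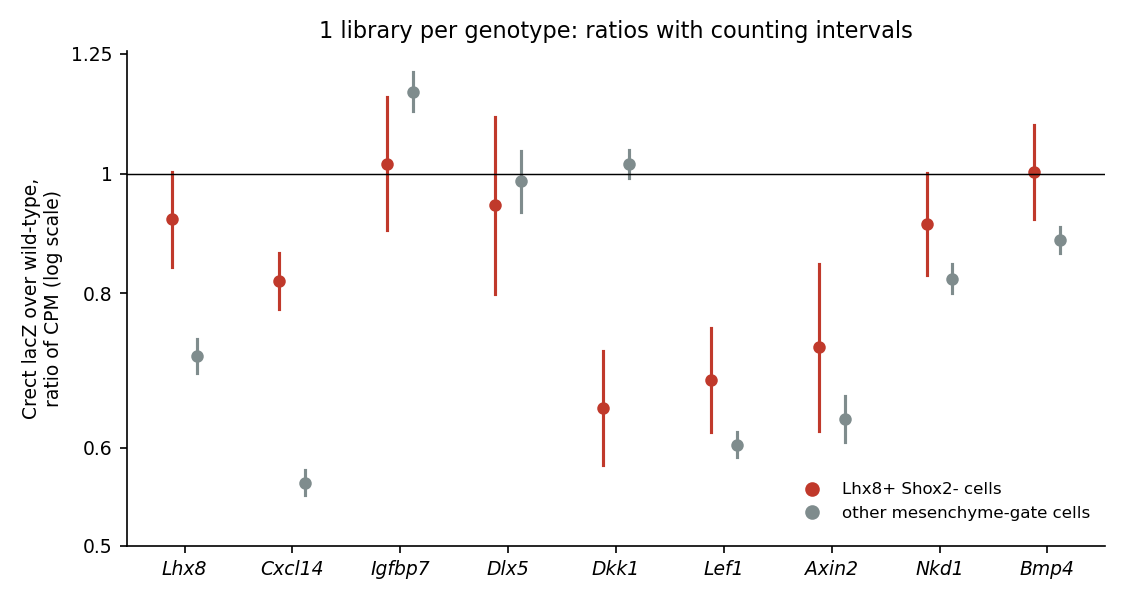
Ratio of CPM, Crect lacZ over wild-type, on a log axis for 5 markers and 4 Wnt and Bmp genes, in Lhx8+ Shox2- cells (red) and other mesenchyme-gate cells (grey), with 95% counting intervals. Dkk1 lies at 0.646 in Lhx8+ Shox2- cells and at 1.02 in the other cells, and Lef1 is below 1 in both. Shox2-high cells, whose Dkk1 was also lower in Crect lacZ, are not drawn. The other cells held unlike shares of Sox9-high cells in the 2 libraries.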

How the data were processed

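Per the labels, cells from trypsin-dissociated tissue were captured with 10x Genomics 3' v2 chemistry, and per the submitters' processing notes the authors used Cell Ranger 2.0 and mm10. The deposited values are raw UMI counts per gene and barcode (27998 genes in both libraries). A filter on barcodes is not stated. The members and gene lists were chosen with earlier results of these data known.

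Counts of cells passing the rule were summed per class and library, giving 6 sums, and fitted with edgeR 4.0.16 in R 4.3.3 (TMM scaling, filterByExpr, library as a block, quasi-likelihood test, Benjamini-Hochberg adjustment). The fit had 2 residual degrees of freedom, beside 8.68 prior degrees of freedom shared over genes. Each call compares classes within the same 2 pools of embryos. The p-values rest on how closely class differences repeated across the 2 libraries and, in larger part, on a spread shared over genes. The library block takes out the spread between libraries. The 10 genes of the rule and 4 further markers got no call. On simulated counts with 4-fold changes, all changed genes over 20 CPM were recovered in both comparisons. The counts were drawn with the spread that the fit itself estimated. Recovery of smaller changes and false calls are not given here, so this check does not speak for calls near 1.5-fold. DESeq2 1.42.0 was an alternative. Doublets were kept, since the rule names no doublet filter; Scrublet scored 5 Crect lacZ and 8 wild-type members. Clusters used 2000 variable genes, 30 components, 15 neighbours and Leiden resolution 0.8 in scanpy 1.11.5. Of the gene IDs, 98.7% were found in GENCODE vM21. The text names genes by a rule: in each of 19 lists up to 2 called genes per direction with a mean of 20 CPM or more, the 10 largest calls per direction at 50 CPM or more, the 5 most different genes each way between libraries and the 10 most variable genes; members of patterning and signalling lists were also given with their values. Whether counting used strand is not stated, so overlapping and antisense genes cannot be told apart. Some genes that this rule chose, and some list members, are not reported here.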

Additional observations from a re-analysis of the deposited data

Results flagged for a closer look

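The summed erythroid markers moved in opposite directions in the 2 libraries when Lhx8+ Shox2- cells were set against Shox2-high cells: the ratio was 0.218 in Crect lacZ and 2.80 in wild-type. The difference between libraries was not tested, since each genotype has 1 library. Without clusters led by markers of other cell types the sums were 1787 CPM in Crect lacZ and 3759 CPM in wild-type Lhx8+ Shox2- cells, against 1689 CPM in Crect lacZ and 3610 CPM in wild-type Shox2-high cells.

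The reporter transcript ext_LacZ, which enters no comparison above, gave 4 UMIs in 3 of the 168 Lhx8+ Shox2- cells of the Crect lacZ library. That is 1.43 CPM, against 1.14 CPM in Shox2-high cells, 1.503 CPM in the other mesenchyme-gate cells and 17.8 CPM in 110 ectodermal cells. Cre gave 1 UMI in the Lhx8+ Shox2- cells and 169 UMIs in the ectodermal cells.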

How the results depend on the processing

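No named gene changed direction under any alternative run. Genes were named in the 2 comparisons only if called and of the same sign in both libraries. Their direction was thus largely fixed by that choice and is no separate support. The median log2 difference of all genes over the other cells, 0.0020, was -0.0973 with no filter on low counts and 0.0434 by DESeq2. Counts of called genes against Shox2-high cells were 208 higher and 170 lower. They became 102 and 75 when cells were thinned before the rule, 8 and 2 without a library term, and 257 lower with no filter on low counts. Against the other cells, 145 higher and 358 lower became 0 and 0 without a library term, with 200 lower after thinning, 557 lower with no filter and 226 lower by DESeq2. Other scaling, fits of only the compared classes, doublet removal and a mitochondrial limit of 5% kept the counts within 1.5 times. So did 2 alternatives chosen after seeing the data, which left out clusters with markers of other cell types or Sox9-high cells. The share of the gate was 6.59% in Crect lacZ and 8.17% in wild-type after thinning, and 2.08% and 3.66% with 3 Lhx8 UMIs. A minimum of 200 UMIs left 21 genes 2-fold higher and 80 lower in Crect lacZ. Thinned sums were 3818 CPM for S phase genes in Crect lacZ, and 6574 CPM in Crect lacZ and 9229 CPM in wild-type for G2 and M phase genes. Leaving out a library leaves no residual degrees of freedom, so per-library values stand with no test. Classes were paired by library, the block of the fit. Depth limits calls of scarce genes.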

Other observations

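The share of Lhx8+ Shox2- cells with a UMI of a Wnt or Notch response gene, after thinning to 6000 UMIs, followed the summed levels. Lef1 was found in 62.0% of Crect lacZ and 76.3% of wild-type Lhx8+ Shox2- cells, against 31.6% in Crect lacZ and 37.0% in wild-type Shox2-high cells. Wild-type endothelial cells, at a median of 19440 UMIs before thinning, had a Lef1 UMI in 25.7%. Hey2 was found in 22.3% of Crect lacZ and 20.5% of wild-type Lhx8+ Shox2- cells, against 4.71% in Crect lacZ and 6.48% in wild-type Shox2-high cells, and in 1.43% of the wild-type endothelial cells. Before thinning, Hey2 was found in 39.9% of Lhx8+ Shox2- cells of both libraries, and Lef1 in 82.1% in Crect lacZ and 91.0% in wild-type.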
